A study of Mus musculus with 6 samples.

Results

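The 10 genes studied here encode transcription factors that mark or specify retinal ganglion cells, and they were followed in whole retinas of DBA/2J mice. They are Pou4f1, Pou4f2, Pou4f3, Isl1, Isl2, Ebf1, Ebf3, Irx2, Eomes and Klf7, and a probe set was counted to a gene where the platform annotation named that gene alone. This gave 21 probe sets for 9 of the 10 genes, of 34945 probe sets and 18193 genes with a single name in the series. Pou4f2 had no such probe set and is not analysed here. The samples were single retinas of female DBA/2J mice, 3 at 3 months of age with normal intraocular pressure and 3 at 8 months with elevated pressure, each from a separate animal and on its own Affymetrix array. DBA/2J is an inbred strain whose eye pressure rises with age, which leads to loss of ganglion cells and makes it a model of glaucoma. At its last reading the pressure of the sampled eyes averaged 17.5 ± 1.99 mmHg in the younger group and 27.4 ± 2.67 mmHg in the older one (SD, n = 3 per group). All groups share strain and sex, and age cannot be told apart from pressure. The younger retinas were all left ones, and of the older ones retina 1 was left and retinas 2 and 3 were right. A fit of age with eye side as a covariate therefore sets older retina 1 alone against the 3 younger ones.

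Retinal ganglion cells are the output neurons of the retina, and their axons form the optic nerve. In development the basic helix-loop-helix factor Atoh7 makes progenitors able to take this fate. Pou4f2 and Isl1 then act side by side to switch on ganglion cell genes, and Pou4f1, Pou4f3, Isl2, Ebf and Irx factors and Eomes refine or maintain subtypes. Several of these genes stay on in adult ganglion cells and are used to count them. Most are not exclusive to them, since Isl1 is also made by ON bipolar and cholinergic amacrine cells, Ebf1 also by pericytes and some amacrine cells, and Klf7 is widespread in neurons. In RNA from a whole retina, fewer cells of a type and less RNA per cell cannot be told apart.

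The sequences upstream of the members are shown for Pou4f1, Isl1 and Ebf1, genes with a bright probe set whose window reaches upstream of the whole annotated gene. They are RefSeq sequences of build GRCm38.p6, 5′ to 3′ on the gene's strand, and end just before the outermost annotated start. The Pou4f1 stretch is chr14:104468119-104468249 on the minus strand, with 80.9% G and C over 131 bases. That of Isl1 is chr13:116309689-116309938 on the minus strand, with 71.2% over 250 bases, and that of Ebf1 is chr11:44617850-44618099 on the plus strand, with 40.0% over 250 bases. Capitals mark TAAT on either strand, the core bound by homeodomain factors such as the POU and LIM factors described here.
Pou4f1: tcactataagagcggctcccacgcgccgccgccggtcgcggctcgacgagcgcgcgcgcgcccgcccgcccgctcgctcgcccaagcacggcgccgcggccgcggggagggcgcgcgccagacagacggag
Isl1: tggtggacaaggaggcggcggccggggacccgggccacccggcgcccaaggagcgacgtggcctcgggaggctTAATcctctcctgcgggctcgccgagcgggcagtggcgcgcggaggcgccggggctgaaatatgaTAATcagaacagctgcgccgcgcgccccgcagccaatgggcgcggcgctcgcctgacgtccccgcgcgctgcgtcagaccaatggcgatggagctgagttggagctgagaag
Ebf1: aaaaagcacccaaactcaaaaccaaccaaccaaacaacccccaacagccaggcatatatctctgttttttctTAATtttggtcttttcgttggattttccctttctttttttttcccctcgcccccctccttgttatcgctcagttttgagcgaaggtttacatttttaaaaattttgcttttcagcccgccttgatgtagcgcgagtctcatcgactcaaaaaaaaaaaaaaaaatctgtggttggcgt
The core occurs 2 times in the Isl1 stretch, 1 time in that of Ebf1 and 0 times in that of Pou4f1. In windows of 300 bases around starts, 58.0% of 32851 windows of all genes hold it, so its presence is common. The longer motifs TAATTA (homeodomain pair, which holds the core), AGGTGTGA (T-box, as for Eomes) and CCACACCC (KLF), searched on both strands, occur in 5.29%, 1.28% and 3.56% of those windows and in 0 of the 10 windows held for 9 of the transcription factor genes.

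A probe set was tested where at least 3 of its 6 values reached 4 on the log2 scale of the deposited levels, without regard to age. By this filter 16 of the 21 probe sets, of 7 genes, were kept. Differences are log2 levels at 8 months minus 3 months, and p-values come from limma over all 20973 kept probe sets. None of the 16 passed after Benjamini-Hochberg adjustment, the limma adjusted p lying between 0.297 and 0.942, where 0.00477% of all probe sets, 1 in number, passed. At a limma unadjusted p under 0.05 there were 3 of the 16, or 18.8%, against 14.9% of all probe sets, all 3 lower at 8 months, where 10.3% of all were. The ages did not overlap in 5 of the 16, or 31.2%, against 21.8% of all, and all 5 were lower at 8 months, where 14.9% of all were. Of the 16, 10 read lower at 8 months, or 62.5%, against 59.4% of all. Their median difference was -0.10 beside -0.041 over all kept probe sets. Counted this way, the group lies near the background of the arrays.

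**Figure D1:**
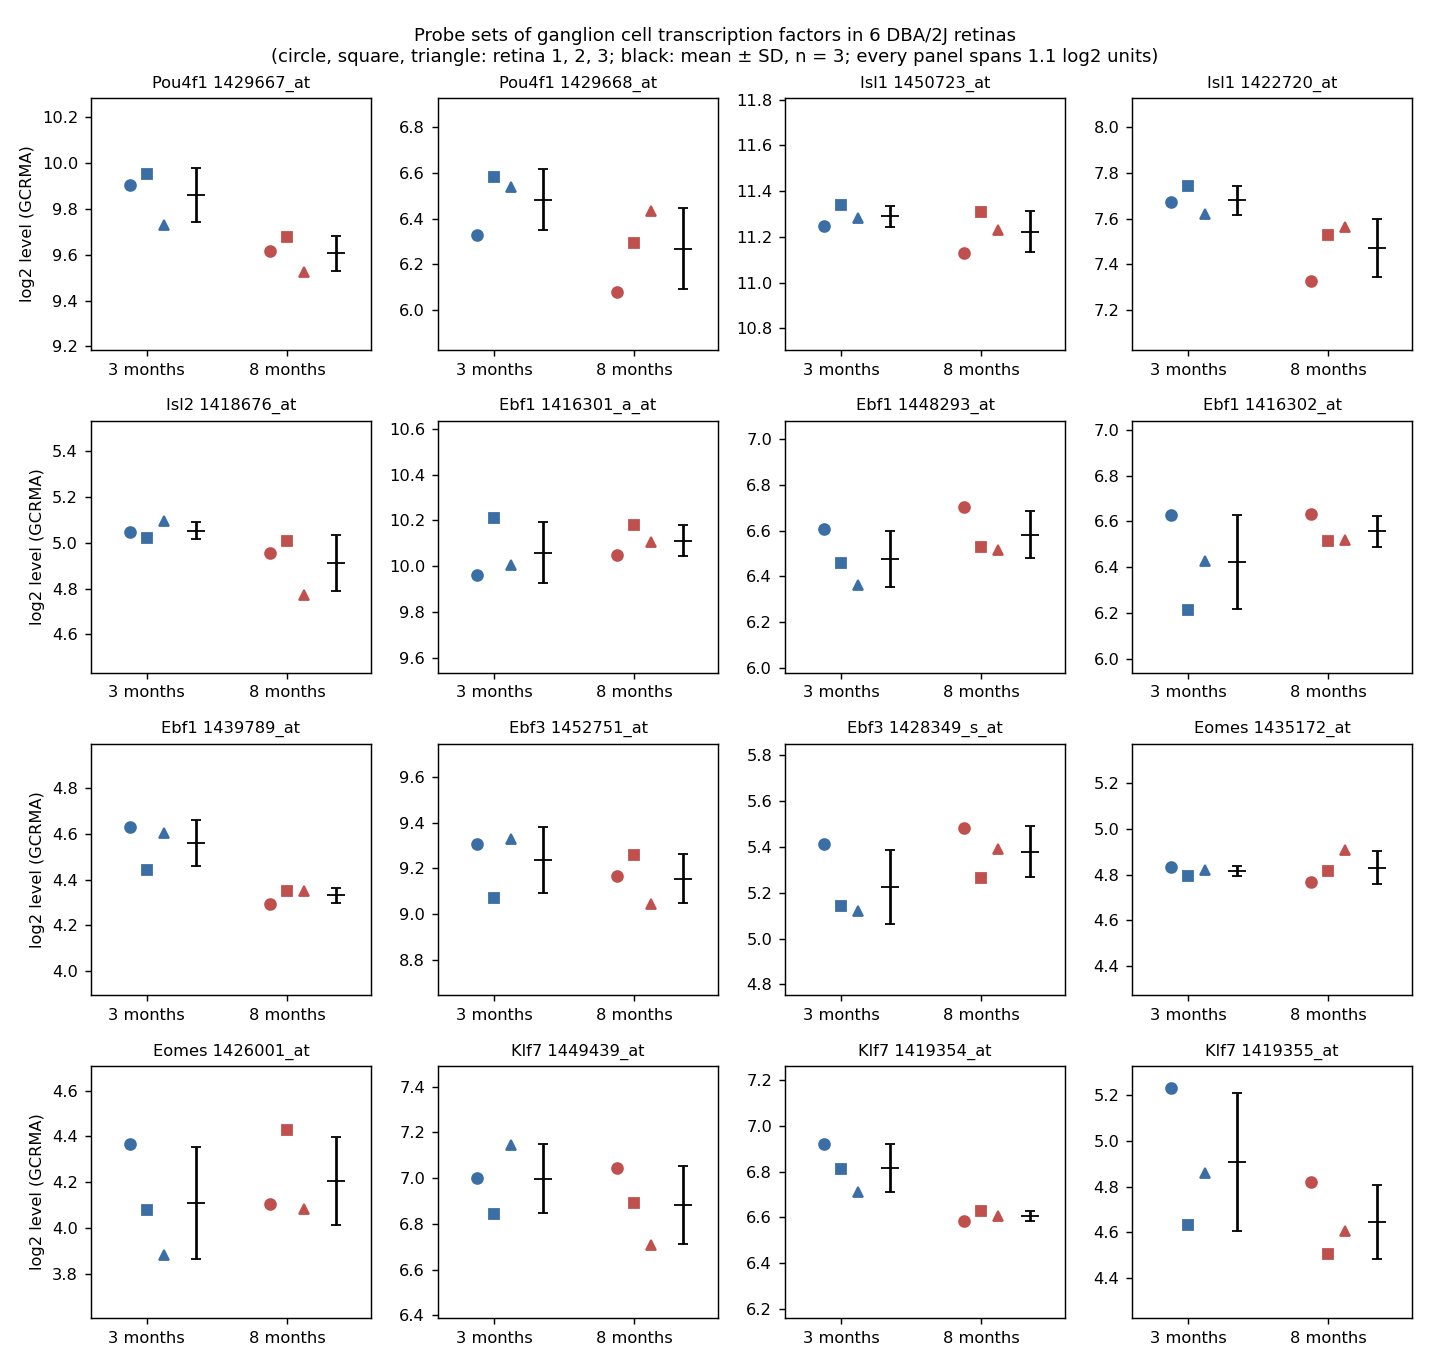
Log2 levels (y axis) of the 16 kept probe sets in each retina at 3 months (blue) and 8 months (red), with circle, square and triangle for retinas 1, 2 and 3 of an age, and mean ± SD in black (n = 3). Every panel spans the same range, and in Pou4f1 1429667_at, Isl1 1422720_at, Isl2 1418676_at, Ebf1 1439789_at and Klf7 1419354_at all 3 older retinas lie below all 3 younger ones.

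Pou4f1, also called Brn3a, is a POU-homeodomain factor kept on in most adult ganglion cells. The gene lies at chr14:104461675-104468118. Its brighter probe set, 1429667_at, read 9.90, 9.95 and 9.73 at 3 months and 9.62, 9.68 and 9.52 at 8 months, retinas 1 to 3 being given in that order here and for all genes that follow. Every older retina lay below every younger one. The difference of -0.26 ± 0.09 (SE), a level 1.19-fold lower at 8 months, had a limma unadjusted p of 0.028 and an adjusted p of 0.297, with a 95% interval from -0.48 to -0.04. Of all kept probe sets, 12.8% had a more negative difference. The dimmer probe set, 1429668_at, read 6.33, 6.58 and 6.54 at 3 months and 6.08, 6.30 and 6.43 at 8 months. Here the ages overlapped, since older retina 3 lay above younger retina 1. Its difference was -0.21, with an interval from -0.50 to 0.07. It was -0.12 without older retina 1 and -0.09 without older retina 1 and younger retina 3. After each rescaling of the arrays it lay between -0.14 and -0.13. With eye side as a covariate, where older retina 1 alone stood against the younger ones, it was -0.40. Both probe sets read lower at 8 months under each of the 15 alternatives tried, but part of this was fixed in advance. A change of filter leaves a difference as it is. With non-overlapping ages, leaving out retinas or the fit with eye side could not turn the sign of the bright one. Rescaling of the arrays could have, and there the bright one lay between -0.24 and -0.17. Outside the fit with eye side, neither had an adjusted p under 0.05.

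The bright Pou4f1 probe set was lowest in the older retina of highest pressure, retina 3 at 30.4 mmHg, and highest in the younger retina of lowest pressure, retina 2 at 15.3 mmHg. Between the remaining older retinas, at 25.3 and 26.5 mmHg, and between the remaining younger ones, at 19.1 and 18.2 mmHg, the retina of higher pressure had the higher level. The dim probe set was highest among older retinas in retina 3.

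Pou4f3, or Brn3c, a relative found in a smaller set of ganglion cells and in hair cells of the ear, was near the lowest values of the arrays. Its 1 probe set read 2.29, 2.29 and 2.29 at 3 months and 2.44, 2.29 and 2.29 at 8 months, and was not tested. The level was therefore too low to compare ages.

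Isl1 and Isl2 are LIM-homeodomain factors, Isl1 an early partner of Pou4f2 and Isl2 a marker of a subset of ganglion cells. Isl1, at chr13:116298270-116309688, read 11.25, 11.34 and 11.28 at 3 months and 11.13, 11.31 and 11.23 at 8 months in its brighter probe set, 1450723_at. The ages overlapped, and the difference of -0.07 had a 95% interval from -0.26 to 0.13. Its sign turned to 0.02 after median centring of the arrays. The second probe set, 1422720_at, read 7.67, 7.74 and 7.62 at 3 months and 7.33, 7.53 and 7.56 at 8 months. All older retinas lay below all younger ones there, older retina 1 by the most. The difference was -0.21 ± 0.09 (SE), with a limma unadjusted p of 0.062 and an adjusted p of 0.356. It was -0.13 without older retina 1 and between -0.15 and -0.12 after rescaling of the arrays. With eye side as a covariate, where older retina 1 alone stood against the younger ones, it was -0.35. Isl1 thus separated the ages in 1 of 2 probe sets.

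Isl2, with 1 dim probe set, read 5.05, 5.02 and 5.10 at 3 months and 4.96, 5.01 and 4.77 at 8 months. The ages did not overlap, but the gap between older retina 2 and younger retina 2 was small. The difference of -0.14 did not pass (limma unadjusted p = 0.158, adjusted p = 0.483). It was -0.07 without older retina 3 and -0.06 after median centring.

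Ebf1 and Ebf3 encode helix-loop-helix factors of the early B cell factor family, made by new ganglion cells and kept by some adult ones. Their probe sets did not share a direction. The brightest Ebf1 probe set, 1416301_a_at, read 9.96, 10.21 and 10.01 at 3 months and 10.05, 10.18 and 10.10 at 8 months, with a difference of 0.05 and an interval from -0.17 to 0.28. Further ones, 1448293_at and 1416302_at, had differences of 0.11 and 0.13, and in all of these the ages overlapped. The dimmest kept one, 1439789_at, went the other way, at 4.63, 4.44 and 4.60 at 3 months and 4.29, 4.35 and 4.35 at 8 months. Its ages did not overlap and it lay close to the filter, with a difference of -0.23 ± 0.08 (SE; limma unadjusted p = 0.030, adjusted p = 0.300), which became -0.14 after median centring. The remaining Ebf1 probe set read between 2.35 and 2.53 and was not tested.

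Ebf3 likewise gave opposite signs. The bright probe set, 1452751_at, read 9.31, 9.07 and 9.33 at 3 months and 9.17, 9.26 and 9.04 at 8 months, with overlapping ages and a difference of -0.08. A less specific one, 1428349_s_at, whose probes may match other transcripts, had a difference of 0.15. The dimmest, 1460666_a_at, stayed below the filter at 3.24 to 4.32. With the mean of its 2 kept probe sets in place of the bright one, the difference of Ebf3 turned from -0.08 to 0.04.

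Irx2, an Iroquois homeodomain factor, and Eomes, a T-box factor also called Tbr2 that marks the light-sensing melanopsin ganglion cells, were both dim. The 1 Irx2 probe set read 3.62, 3.80 and 3.62 at 3 months and 3.51, 3.87 and 3.62 at 8 months, below the filter, and was not tested. Eomes read 4.83, 4.79 and 4.82 at 3 months and 4.77, 4.82 and 4.91 at 8 months in 1435172_at, a difference of 0.02 with an interval from -0.17 to 0.20. Its other probe set, 1426001_at, just passed the filter, 3 of its 6 values reaching 4.10, and differed by 0.10 with overlapping ages. Eomes thus showed no separation of the ages, and the interval of its brighter probe set leaves room for changes of either sign.

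Klf7, a Krüppel-like zinc finger factor that promotes axon growth, read lower at 8 months in all 3 kept probe sets. The probe set 1419354_at read 6.92, 6.81 and 6.71 at 3 months and 6.58, 6.63 and 6.61 at 8 months. Older retinas all lay below younger ones, and they differed little among themselves (SD 0.02, n = 3, against 0.10 at 3 months). The difference was -0.21 ± 0.08 (SE), with a limma unadjusted p of 0.042 and an adjusted p of 0.320. After each rescaling of the arrays it lay between -0.13 and -0.12, with limma unadjusted p from 0.154 to 0.184. The brightest Klf7 probe set, 1449439_at, read 7.00, 6.84 and 7.15 at 3 months and 7.05, 6.89 and 6.71 at 8 months. There the ages overlapped and the difference of -0.12 turned to 0.05 with eye side as a covariate. The dimmest kept one, 1419355_at, varied widely at 3 months, at 5.23, 4.63 and 4.86, and differed by -0.26 with overlapping ages. That value was -0.10 without younger retina 1, -0.40 without younger retina 2 (limma unadjusted p = 0.042) and -0.09 in the fit with eye side. The remaining one was below the filter, at 3.29 to 3.40.

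**Figure D2:**
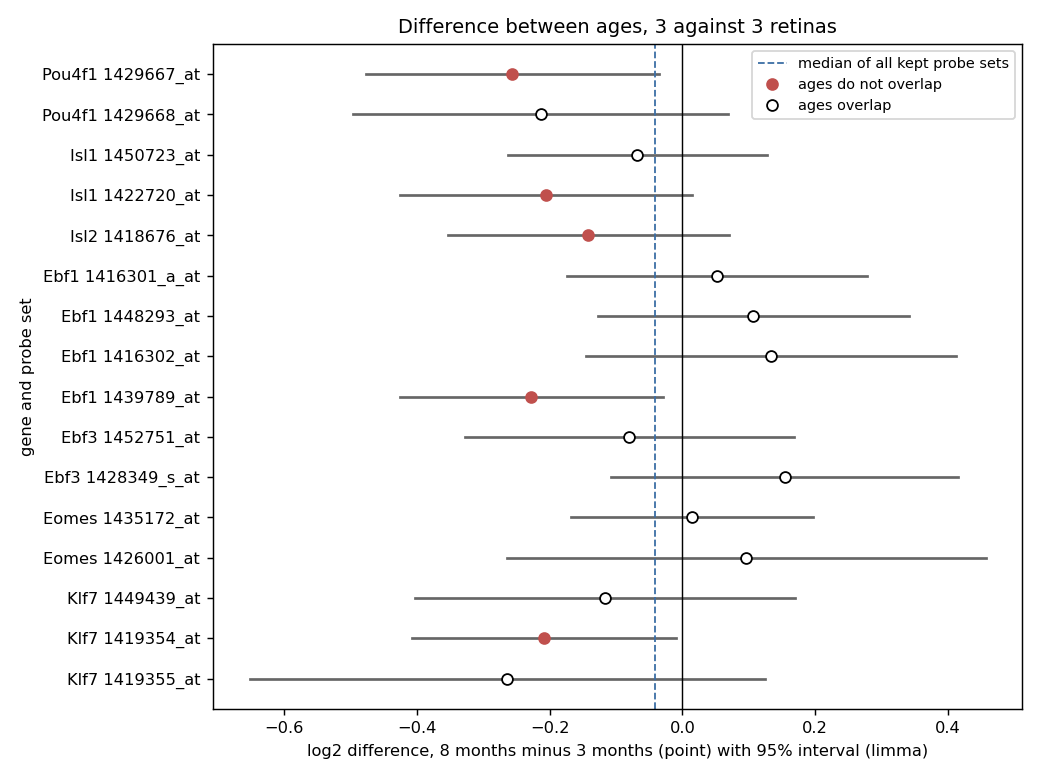
Log2 difference, 8 minus 3 months (x axis), with its 95% interval from limma for each kept probe set (y axis). Red points mark the 5 whose ages do not overlap, the dashed line is the median of all kept probe sets (-0.041), and only the intervals of Pou4f1 1429667_at, Ebf1 1439789_at and Klf7 1419354_at lie wholly below 0.

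The count of 3 probe sets at an unadjusted p under 0.05 changed with single retinas. Leaving out older retina 1 or older retina 3 gave 0, where 9.83% and 12.5% of all probe sets then stood at that p. Leaving out older retina 2 gave 1, beside 9.21% of all, and leaving out younger retina 1 also gave 1, which was higher at 8 months, beside 12.2%. Without younger retina 2 or younger retina 3 there were 2, beside 19.6% and 11.1%. With eye side as a covariate, older retina 1 alone stood against the younger ones, so no count is read from that fit. The difference there was -0.25 for Pou4f1 1429667_at, -0.27 for Ebf1 1439789_at and -0.23 for Klf7 1419354_at. Pou4f1 1429668_at and Isl1 1422720_at, whose lowest value lay in older retina 1, stood at -0.40 and -0.35. The count was 0, beside 15% of all, when arrays were centred on the median of their kept probe sets. Over all probe sets that scaling turned 971 higher and 2155 lower at an unadjusted p under 0.05 into 2141 higher and 1000 lower, while quantile normalization gave 1376 and 1423. Among the 16, the 5 lower and 0 higher with non-overlapping ages became 1 lower and 1 higher after median centring, 2 lower and 1 higher after quantile normalization and 3 lower and 1 higher after cyclic loess. The ages then did not overlap in 23.7%, 20.6% and 21% of all probe sets, beside 21.8% with deposited values. The bright Pou4f1 probe set had a difference between -0.33 and -0.17 over all 15 alternatives, and between -0.32 and -0.21 when 1 retina was left out, with limma unadjusted p from 0.013 to 0.091. Its unadjusted p was 0.122 after median centring.

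**Figure D3:**
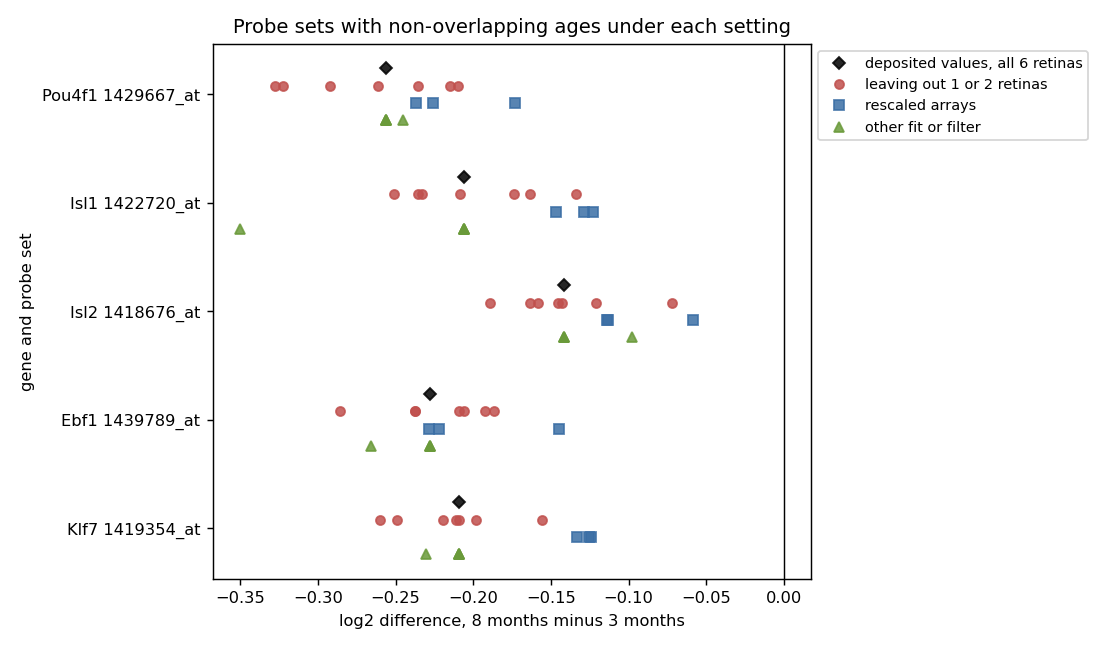
Log2 difference, 8 minus 3 months (x axis), of the 5 probe sets whose ages do not overlap, with deposited values of all 6 retinas (diamonds), with 1 or 2 retinas left out (circles), after rescaling of the arrays (squares) and under other fits or filters (triangles). Because the ages do not overlap, leaving out retinas or changing the fit or filter could not turn the sign. Only the squares could have crossed 0. They all lie below 0, mostly nearer to it than the diamonds, as for Isl2, whose difference of -0.14 shrank to -0.06.

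Other regulators of ganglion cell fate were read beside these genes. Of 37 listed, 23 were kept, 0 passed over all probe sets, and 2 had a limma unadjusted p under 0.05, both lower, where 11.5% of all genes were lower at that p. The median difference of the list was -0.04, against -0.06 over all 11219 genes. The 2 were the SoxC factors Sox11 and Sox4, which act with Atoh7 in young ganglion cells. Sox11 read 7.79, 7.90 and 7.80 at 3 months and 7.17, 7.49 and 7.25 at 8 months, and Sox4 8.98, 9.05 and 9.16 against 8.71, 8.89 and 8.75. Neither passed (limma adjusted p = 0.186 and 0.271), and in both the ages did not overlap. Of the 23, 4 were lower and 1 higher with non-overlapping ages, where 16.9% of all genes were lower in that way. Lmo4, a LIM-only cofactor, and Irx4, an Iroquois factor, followed at -0.32 and -0.33.

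Of 28 general ganglion cell markers 26 were kept, with a median difference of -0.12 and 18 lower, where 63.5% of all genes were. At an unadjusted p under 0.05 there were 2 of the 26, both lower, where 11.5% of all genes were lower at that p. They were the beta-tubulin Tubb3 at -0.57 and the tubulin polymerization factor Tppp3 at -0.30. Of the list 0 passed over all probe sets (limma adjusted p = 0.206 and 0.268 for these 2). Ablim1, an actin-binding protein, and Uchl1, a neuronal ubiquitin hydrolase, followed at 0.22 and -0.26. Of 17 subtype markers 9 were kept, with 0 at an unadjusted p under 0.05 and a median of -0.04. Those of smallest p were Penk, Cdhr1, Tac1 and Igf1, at -0.34, -0.08, -0.09 and 0.06.

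**Figure D4:**
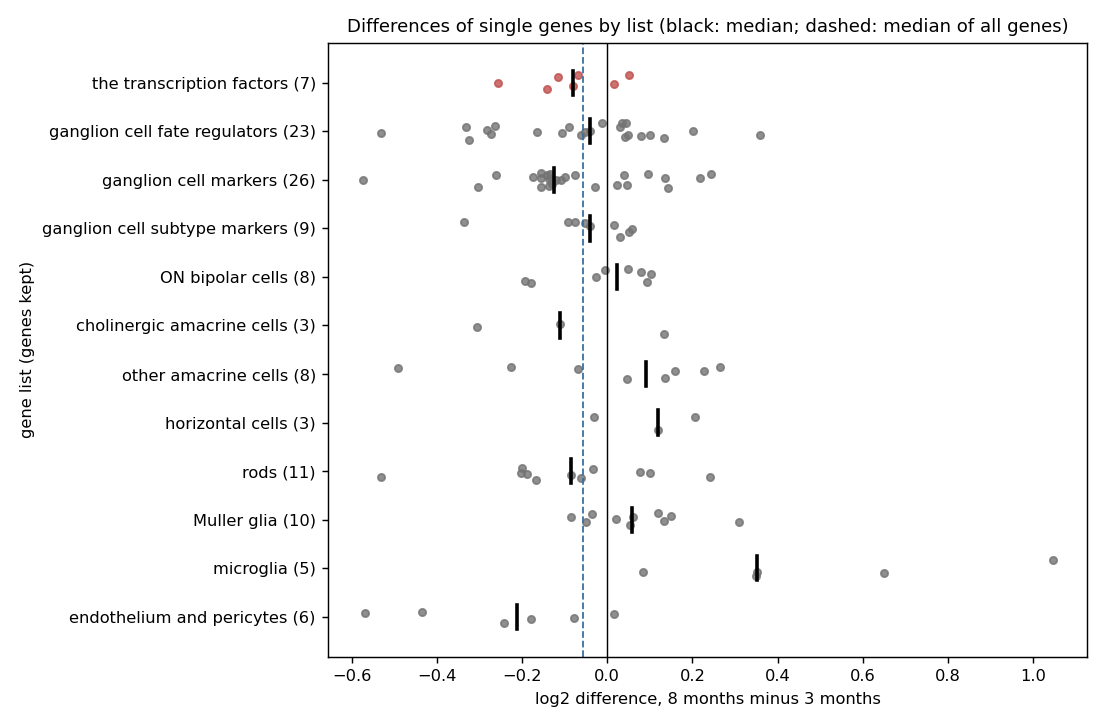
Log2 difference, 8 minus 3 months (x axis), of single genes (points) by list (y axis, number of kept genes in brackets), with list medians as black bars and the median of all genes, -0.06, as a dashed line. The 7 transcription factor genes lie between -0.26 and 0.05, and the microglia list has the highest median of those drawn, which leave out lens genes.

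Cells that share these factors or mix with ganglion cells in the sample were read from marker lists. In none of these lists did a gene pass over all probe sets in limma after adjustment. Rod genes were bright in every retina, with a mean log2 level from 11.81 to 11.94 at 3 months and from 11.76 to 11.82 at 8 months. At an unadjusted p under 0.05, 3 of 11 were lower, where 11.5% of all genes were. They were Prph2, Pde6b and Rom1 at -0.53, -0.20 and -0.19, followed by Cnga1 at -0.20. ON bipolar genes, relevant to Isl1, gave 0 of 8 kept, with mean levels from 8.88 to 8.98 at 3 months and from 8.87 to 8.99 at 8 months and a median difference of 0.02. Those of smallest p were Cabp5, Otx2, Pcp2 and Prkca, at -0.19, 0.09, 0.10 and 0.08. Of the cholinergic amacrine list 3 of 7 were kept, Megf10, Megf11 and Sox2, at -0.30, -0.11 and 0.13, Megf10 at an unadjusted p of 0.037. Other amacrine genes gave 2 of 8 higher at that p, where 3.58% of all genes were, Pax6 and Tfap2b at 0.23 and 0.26, and 1 lower, Vip at -0.49. Slc32a1 followed at -0.23. The horizontal cell genes Lhx1, Prox1 and Calb1 differed by 0.21, 0.12 and -0.03.

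Of 13 microglial genes listed 5 were kept, and all 5 read higher at 8 months. At an unadjusted p under 0.05 there were 3 of 5 kept genes, where 3.58% of all genes were higher at that p. They were C1qb at 1.05, Ctss at 0.65 and Tyrobp at 0.35, while Laptm5 and Csf1r differed by 0.35 and 0.08 without reaching it. The mean level of the 5 ran from 6.00 to 6.20 at 3 months and from 6.45 to 6.69 at 8 months. Endothelial and pericyte genes, relevant to Ebf1, read lower in 5 of 6 kept, where 63.5% of all genes did. The 1 reading higher was the pericyte gene Pdgfrb, at 0.015. At an unadjusted p under 0.05 there was 1, Cldn5 at -0.44, where 11.5% of all genes were lower at that p. Tek, Rgs5 and Vtn followed at -0.57, -0.24 and -0.18. The mean level of the 6 ran from 6.75 to 7.01 at 3 months and from 6.65 to 6.67 at 8 months. Of 10 Müller glia genes 7 read higher and 3 lower, where 63.5% of all genes were lower. At an unadjusted p under 0.05, 1 was higher, Aqp4 at 0.31, where 3.58% of all genes were. Glul, Dkk3 and Rlbp1 followed at 0.15, -0.09 and 0.13. Lens genes differed between single retinas. Their mean level was 8.53 in older retina 1, 9.68 in younger retina 3 and 4.05 to 5.92 in the others. All 10 kept ones read lower at 8 months, with a median difference of -0.86, and 0 of them stood at an unadjusted p under 0.05. Among those 10, Crygb, Crygd, Crybb3 and Cryba1 had the smallest p. Without older retina 1 and younger retina 3 the bright Pou4f1 probe set differed by -0.33 and Klf7 1419354_at by -0.25, more than with all retinas. Isl1 1422720_at and Ebf1 1439789_at differed by less, at -0.16 and -0.19, and Isl2 stayed at -0.14. Of the B lymphocyte genes, a blood cell type that also makes Ebf1, 0 of 7 were kept. The part of these other cells in the differences of the transcription factors was not tested.

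The genes whose levels over the 6 retinas ran most like the bright Pou4f1 probe set were Pex5l, 1110032A03Rik, Nmt1, Zfpl1 and Mmaa, with Pearson's r from 0.979 to 0.986 over 6 retinas, given as a description of the closest of 11219 genes. Among the other transcription factors, Klf7 1419354_at came nearest, at 0.897, then Isl1 1422720_at at 0.732 and Isl2 at 0.687, while the dim Pou4f1 probe set reached 0.423. All these probe sets share the difference between ages, which enters these values.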

How the data were processed

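Total RNA of 6 whole retinas was amplified, labelled with biotin and hybridised to Affymetrix mouse arrays, per the labels' protocols. The authors deposited 1 log2 value for each probe set and array. The submitters' processing notes name GCRMA 1.1.0 and R 1.9.0. As a method GCRMA shrinks weak signals, which can make a difference between dim probe sets look smaller than it is. Its options, any further scaling and detection calls are not given in the sources used here.

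Of 45101 probe sets 64 controls were left out, and 20973 were kept where the third highest of 6 values reached 4. The platform annotation gave 1 gene for 34945 probe sets, several for 932 and none for 9160. For the lists, the brightest kept probe set, by its mean over the arrays, stood for a gene. The comparison of ages used limma 3.58.1 (lmFit, eBayes) under R 4.3.3 without covariates. Tests were two-sided, and p-values were adjusted after Benjamini-Hochberg over every kept probe set, with a threshold of 0.05. The fit was checked on simulated data. With 3 against 3 retinas, the smallest two-sided p of an exact permutation test is 0.1, and the number of arrays limits the precision. Errors (SD, SE) are those of log2 values. The members, the lists and the alternatives were chosen with earlier results of these data known. Named genes were all members, up to 4 kept genes of smallest unadjusted p from each other list, and the 5 genes most like Pou4f1. Csf1r and Pdgfrb were named besides, as further kept genes of their lists. Upstream sequences are those of RefSeq for GRCm38.p6, in windows from 250 bases before to 50 after each start.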

Additional observations from a re-analysis of the deposited data

How the results depend on the processing

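Of 234 values of single probe sets of the transcription factors under the alternatives, 10 in 7 probe sets had the sign turned. Values with other filters, the replicate block and eBayes with trend equal the main difference, so they could not turn. Leaving out retinas could not turn the sign either where the ages do not overlap. The 234 therefore hold many values whose sign was fixed. Outside the fit with eye side, none had a limma adjusted p under 0.05. The turned values were 0.015 for Isl1 1450723_at and 0.0033 for Ebf3 1452751_at after median centring. Others came from the fit with eye side, where 8-month retina 1 alone stood against the younger ones. They were -0.011 for Ebf1 1416301_a_at, -0.049 for Eomes 1435172_at, -0.0036 for Eomes 1426001_at and 0.049 for Klf7 1449439_at. With 1 retina left out, Eomes 1435172_at ran from -0.023 (without 8-month retina 3) to 0.047, and Eomes 1426001_at from -0.017 (without 3-month retina 3; -0.015 without 8-month retina 2) to 0.226. Ebf1 1448293_at turned to -0.010 without both crystallin-rich retinas, and Ebf3 to 0.037 with the mean of its probe sets. The count passing over all probe sets was 2 with a filter at 6, after quantile normalization, median centring or cyclic loess. It was 0 with no filter, with the replicate block and without both crystallin-rich retinas. Leaving out 1 retina gave 0 in each case. The count of the transcription factors' probe sets at an unadjusted p under 0.05 was 0 after median centring, beside 15% of all. It was 1 without both crystallin-rich retinas, beside 7.47%, and 0 to 2 with 1 retina left out, beside 9.21% to 19.6%. Non-overlapping ages were found in 3 of the 10 then kept with a filter at 6, where 25% of all probe sets showed them. They were found in 3 of 16 after quantile normalization (20.6% of all) and 2 after median centring (23.7%). Without 3-month retina 1 there were 10, 6 of them lower at 8 months (32% of all). Without 3-month retina 2 there were 8, 7 of them lower (39.8%). Leaving out any other single retina gave 5 or 6 (29.2% to 33.2%). With no filter, 5 of 11 rod genes and 1 of 10 ON bipolar genes stood at a limma unadjusted p under 0.05, beside 9.23% of all probe sets. The same 11 rod genes were kept in the main fit, with 3 at that p. Replicate numbers did not pair the retinas. Deviations of same-numbered retinas from their age's mean correlated across probe sets at -0.141, 0.064 and -0.283. The replicate block gave 2 of the 16 probe sets of the transcription factors at an unadjusted p under 0.05, beside 13% of all.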

Other observations

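Among the 16 kept probe sets of the transcription factors, 8-month retina 1 held the lowest of the 6 values in 6, 8-month retina 3 in 4 and 3-month retina 3 in 3. The highest value lay in 3-month retina 2 in 5 and in 8-month retina 1, 3-month retina 1 and 3-month retina 3 in 3 each. Retina 1 of the older animals was therefore lowest for some of these probe sets and highest for others. The spread within an age ran from an SD of 0.021 to 0.301 on the log2 scale, with a median of 0.115 (n = 3 in each age). The deviations of 8-month retina 1 and 3-month retina 3, the 2 retinas rich in lens transcripts, correlated at 0.383 across all kept probe sets.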
